A study of Mus musculus with 48 samples.

Results

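The genes described here are 10 genes that astrocytes express: Gfap, Aqp4, Slc1a2, Slc1a3, Gja1, Gjb6, Aldh1l1, Glul, S100b and Fabp7. They were taken as a named group and not by any measured value, although earlier results of these data were known. Every array probe whose RefSeq accession belongs to 1 of them was kept. This gave 18 probes of 10 genes, out of 41174 probes and 18879 named genes on the array. Slc1a2 had 4 probes, Aqp4 had 3, Gfap, Gjb6 and Glul had 2 each, and the other genes had 1. All 18 probes were well above background on 48 of 48 arrays.

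Transcripts were measured in frontal cortex and hypothalamus of 24 mice, with 1 array for each tissue of each mouse. There were 8 mice each of 3 genotypes on a C57BL/6 background. Per3 5/5 mice (Boxhill in the labels) and Per3 4/4 mice (Coach) carried a knock-in in which an exon of the mouse clock gene Per3 was replaced by the human PER3 exon with 5 or 4 copies of a repeat, and WT mice carried the mouse exon. The replaced exon was switched in every tissue by a ubiquitous Cre that was then bred out, so the knock-in was not restricted to astrocytes or to the brain. All 3 groups, WT included, had been kept awake through the 12 h of light before the brains were taken (the labels also call this sleep displacement), and no mouse left to sleep is part of the data analysed here. The labels give neither sex nor age.

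Astrocytes are the glial cells that enwrap synapses and blood vessels. They clear glutamate and potassium from the extracellular space, return glutamine to neurons, exchange water and ions with the blood through their endfeet, and are coupled to each other by gap junctions. Their transcripts differ between brain regions and with time of day and sleep history, which is the reason to ask how these 10 genes stood in the 2 tissues and in the 3 genotypes after sleep loss. In pieces of whole tissue, fewer astrocytes and less RNA per astrocyte cannot be told apart.

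Array brightness differed between the genotypes. The 75th percentile of the signal lay between 972.8 and 1462.6 intensity units in WT cortex, between 727.0 and 1147.6 in Per3 5/5 cortex and between 324.5 and 1102.3 in Per3 4/4 cortex, and every level below is given as log2 signal over the 75th percentile of its own array, called the log2 level. Genotype was also unevenly spread over the 3 scan days: the Per3 5/5 mice were scanned on days 1 and 3 (4 each), the WT mice on days 2 and 3 (5 and 3), and the Per3 4/4 mice on days 1, 2 and 3 (4, 3 and 1). Differences between genotypes are therefore given without and with scan day as a block. 3 hypothalamus arrays stood apart. In 2 of them, WT replicate 8 and Per3 5/5 replicate 8, the summed log2 level of 6 pituitary hormone genes was 9.54 and 5.45, against -0.29 to 2.53 on the other hypothalamus arrays. WT replicate 3 had the lowest Aqp4 and the highest Fabp7 level of its group. Over all probes its median correlation with the arrays of its group was 0.976, the lowest of that group (0.982 to 0.992 on the others). On the other 47 arrays of all groups this value ran from 0.968 to 0.992. Where leaving out these arrays changed calls in hypothalamus, the values or counts without them are given. The tissues of a mouse always shared a slide, and each slide held 2 mice. In cortex, Per3 5/5 replicate 5 had a summed pituitary level of 2.68, against at most -0.51 on the others.

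RefSeq promoters of 9 of the 10 genes were searched (mouse build GRCm38.p6), and Aqp4 was left out of this search. Of the 9, 5 are printed because the results turn on these genes. Gfap and Slc1a2 had the largest tissue differences of the 10 genes, in opposite directions. Slc1a3, Gja1 and Glul varied together across mice in cortex. Each sequence runs 5′ to 3′ on the strand of the gene over 280 bases, from 250 bases before the annotated start to 30 bases after it, and capitals mark matches to the motifs named after the sequences. Gfap lies at chr11:102897171-102897450 on the minus strand, Slc1a2 at chr2:102706188-102706467 on the plus strand, Slc1a3 at chr15:8710778-8711057 on the minus strand, Gja1 at chr10:56377050-56377329 on the plus strand and Glul at chr1:153899679-153899958 on the plus strand.
Gfap: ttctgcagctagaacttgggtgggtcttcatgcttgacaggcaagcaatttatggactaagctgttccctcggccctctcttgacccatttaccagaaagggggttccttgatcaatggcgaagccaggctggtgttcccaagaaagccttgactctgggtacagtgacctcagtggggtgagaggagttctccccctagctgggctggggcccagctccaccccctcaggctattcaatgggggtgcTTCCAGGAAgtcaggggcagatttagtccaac
Slc1a2: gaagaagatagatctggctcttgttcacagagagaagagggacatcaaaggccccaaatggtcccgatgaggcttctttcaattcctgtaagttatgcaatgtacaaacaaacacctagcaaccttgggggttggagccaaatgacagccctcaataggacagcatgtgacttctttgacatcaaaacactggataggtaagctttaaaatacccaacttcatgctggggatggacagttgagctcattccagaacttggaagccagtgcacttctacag
Slc1a3: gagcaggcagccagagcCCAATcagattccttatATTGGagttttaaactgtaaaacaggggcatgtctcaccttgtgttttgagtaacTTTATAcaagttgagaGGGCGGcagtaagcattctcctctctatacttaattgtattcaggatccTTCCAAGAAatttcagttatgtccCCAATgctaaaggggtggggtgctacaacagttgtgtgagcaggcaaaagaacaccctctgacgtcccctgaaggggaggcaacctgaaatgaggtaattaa
Gja1: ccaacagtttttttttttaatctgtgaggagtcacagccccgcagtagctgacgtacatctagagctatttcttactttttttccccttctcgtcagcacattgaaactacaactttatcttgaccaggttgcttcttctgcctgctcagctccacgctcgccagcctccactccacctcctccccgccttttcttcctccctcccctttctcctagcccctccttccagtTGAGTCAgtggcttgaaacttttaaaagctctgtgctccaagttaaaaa
Glul: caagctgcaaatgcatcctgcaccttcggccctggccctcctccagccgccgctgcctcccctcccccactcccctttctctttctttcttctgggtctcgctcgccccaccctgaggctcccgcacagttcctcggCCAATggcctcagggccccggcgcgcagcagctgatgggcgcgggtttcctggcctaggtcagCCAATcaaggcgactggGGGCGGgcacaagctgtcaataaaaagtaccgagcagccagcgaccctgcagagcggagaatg

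In all, 6 motifs were searched on both strands in the 300-base windows of all 32851 RefSeq promoters, and none overlapped another in these 9 promoters. The motif TTCNNNGAA, which STAT factors bind, was in 8.3% of all promoters and in 2 of the 9, as TTCCAGGAA from base -2 of Gfap and TTCCAAGAA from base -96 of Slc1a3. TGANTCA, the AP-1 motif, was in 7.81% of promoters and in 1 of the 9, as TGAGTCA from base -19 of Gja1. CCAAT was in 37.4% of promoters and 5 of the 9, GGGCGG in 35.7% and 3 of the 9, and TATAAA in 13.6% and 1 of the 9 (Slc1a3, on the opposite strand). The E-box CACGTG, to which clock factors bind, was in 7.15% of promoters and in 0 of the 9. Slc1a2 held none of the 6 motifs in its window. A match is a run of letters and not a shown binding site.

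The tissue difference was the largest feature of these genes. It was tested within mice, with the mouse as a block, at an adjusted p under 0.05 (limma, n = 8 mice per genotype). At this threshold 58.6% of all 31228 probes tested differed between the tissues in Per3 5/5 mice, 59.0% in Per3 4/4 mice and 59.5% in WT mice. Of the 18 astrocyte probes, 14, 13 and 13 did so in the same order, so the share of these probes that differed was not far from that of all probes, and what set the genes apart from each other was direction and size. Taking the probe with the highest mean signal of each gene, 7 of 10 genes differed in each genotype. In Per3 5/5 mice 6 were higher and 1 was lower in hypothalamus, and in both other genotypes 4 were higher and 3 lower. The probe counts were 16, 13 and 13 without WT replicate 3, and 13 in each genotype without the 2 arrays high in pituitary genes.

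**Figure D1:**
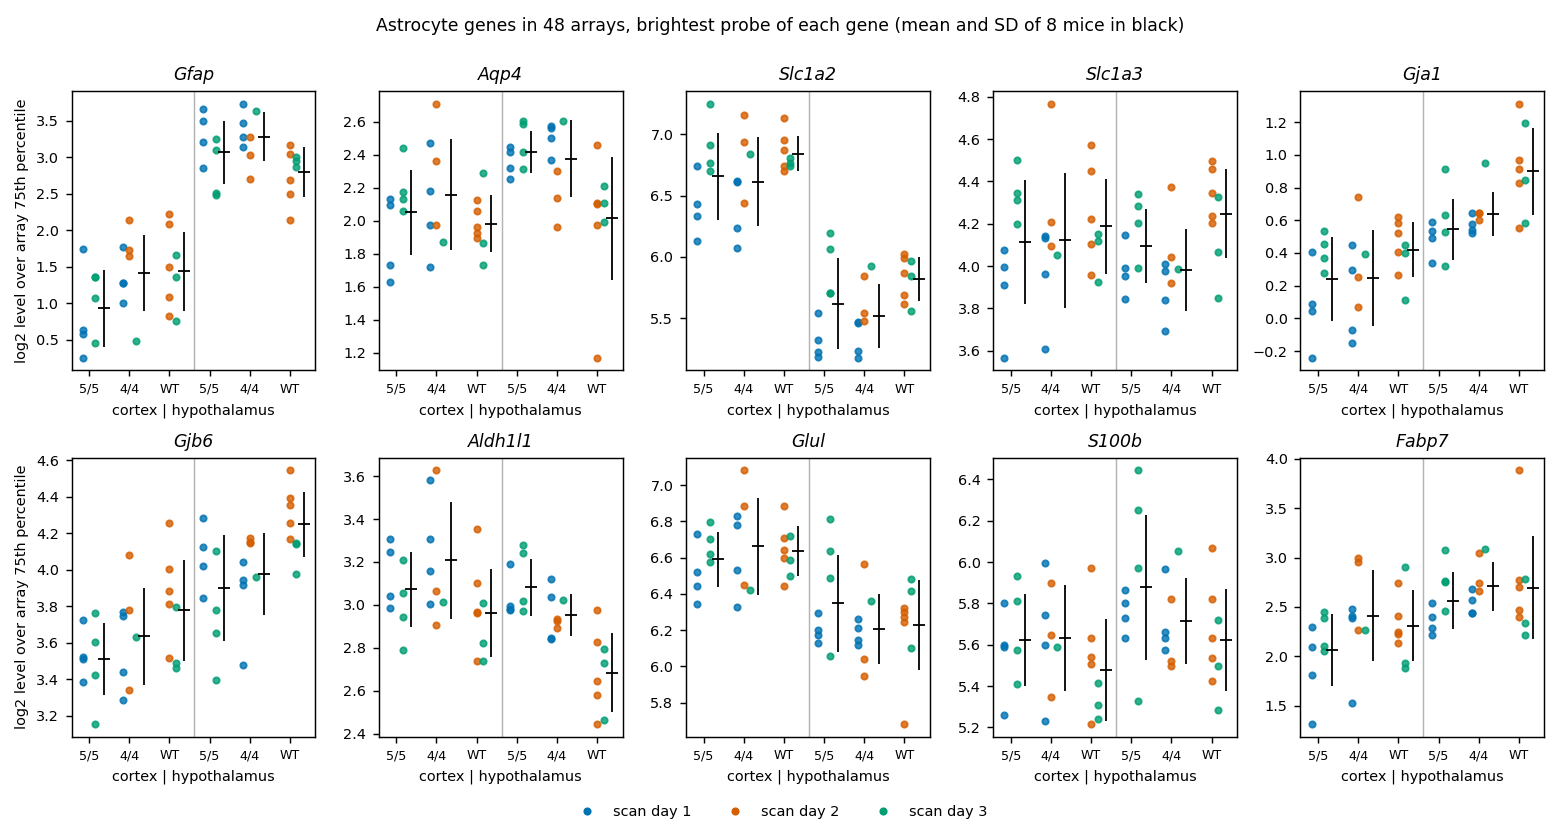
Log2 level over the 75th percentile of the array for each of the 10 genes (probe with the highest mean signal), with 1 point per mouse coloured by scan day, and the mean and SD of 8 mice in black; cortex is left and hypothalamus right of the grey line in each panel, and each panel has its own axis. Gfap is higher and Slc1a2 lower in hypothalamus in all 24 mice, while Slc1a3 lies in nearly the same range in both tissues and the S100b ranges overlap.

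Gfap, the intermediate filament protein of the astrocyte cytoskeleton, was higher in hypothalamus in 24 of 24 mice. At its brightest probe (A_52_P52303) the lowest, median and highest log2 levels over all mice were 0.25, 1.32 and 2.22 in cortex and 2.13, 3.07 and 3.73 in hypothalamus. The tissues touched at 1 end only, where the lowest hypothalamus level (WT replicate 3) fell just below the highest cortex level. Without that array the lowest hypothalamus level was 2.48, above all cortex levels. The log2 difference was 2.14, 1.87 and 1.36 for Per3 5/5, Per3 4/4 and WT mice (SE 0.25 each, adjusted p 8.78e-08, 7.16e-07 and 5.62e-05), or 4.40-, 3.65- and 2.56-fold. The size varied widely between mice, from 0.05 (WT replicate 3) to 3.24. The other Gfap probe (A_52_P540991), which carries the accession of another Gfap transcript, gave 1.56, 1.52 and 1.01, higher in 23 of 24 mice. By scan day, the mean difference at the brightest probe was 2.29 on day 1, 1.17 on day 2 and 1.91 on day 3. Day 1 held no WT mouse and day 2 no Per3 5/5 mouse, so the order of the genotypes here cannot be told apart from that of the scan days.

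Slc1a2, which encodes the glutamate transporter GLT-1, ran the other way, lower in hypothalamus in 24 of 24 mice at each of its 4 probes. At the brightest probe (A_51_P179878) the log2 levels were 6.07, 6.74 and 7.25 (lowest, median, highest) in cortex and 5.18, 5.65 and 6.19 in hypothalamus. At A_51_P477875 they were 2.61, 3.03 and 3.68 in cortex and 0.22, 1.28 and 2.0 in hypothalamus. The tissues did not overlap at A_51_P477875, A_52_P168496 or A_52_P178651, and overlapped slightly at the brightest probe. There the log2 difference was -1.04, -1.10 and -1.02 in Per3 5/5, Per3 4/4 and WT mice (SE 0.12, adjusted p 3.27e-08, 1.20e-08 and 4.17e-08), which left hypothalamus at 0.487, 0.467 and 0.493 of the cortex level. The other 3 probes gave larger differences, between -1.21 and -2.02. The probes of this gene agreed in direction and differed in size by up to 1 log2 unit, and the probe sequences were not used here.

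Slc1a3, the gene of the second astrocyte glutamate transporter GLAST, did not pass in any genotype. Its log2 levels were 3.57, 4.13 and 4.77 in cortex and 3.69, 4.06 and 4.49 in hypothalamus, over nearly the same range. The log2 difference was -0.02, -0.14 and 0.06 for Per3 5/5, Per3 4/4 and WT mice (SE 0.10, adjusted p 0.878, 0.230 and 0.619). The 2 transporter genes thus differed in tissue pattern, with Slc1a2 lower in hypothalamus in every mouse and Slc1a3 within the spread between mice.

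Both connexin genes were higher in hypothalamus. Gja1 and Gjb6 encode the channel proteins that join neighbouring astrocytes. Gja1 log2 levels were -0.24, 0.38 and 0.74 in cortex over all mice, and in hypothalamus 0.32, 0.53 and 0.91 in Per3 5/5, 0.52, 0.62 and 0.95 in Per3 4/4 and 0.55, 0.88 and 1.31 in WT mice. The difference was 0.30, 0.39 and 0.48 in that order (SE 0.09, adjusted p 0.00509, 0.000498 and 5.11e-05) and had this direction in 22 of 24 mice, although the ranges of the tissues overlapped. Gjb6 rose from 3.16, 3.62 and 4.26 in cortex to 3.40, 4.11 and 4.55 in hypothalamus at its brightest probe (A_52_P482251). The difference was 0.39, 0.34 and 0.47 (SE 0.09, adjusted p 0.000697, 0.00226 and 8.59e-05), in 23 of 24 mice, and the second probe (A_51_P218937) gave 0.43, 0.52 and 0.67 in 24 of 24 mice.

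The metabolic genes were lower in hypothalamus in Per3 4/4 and WT mice, and Glul at 1 of its 2 probes in Per3 5/5 mice as well. Glul, glutamine synthetase, makes glutamine from the glutamate that astrocytes take up. Its log2 levels at the brightest probe (A_52_P101279) were 6.33, 6.61 and 7.08 in cortex and 5.68, 6.25 and 6.81 in hypothalamus, lower in 21 of 24 mice. The difference was -0.46 in Per3 4/4 and -0.41 in WT mice (SE 0.11, adjusted p 0.00106 and 0.00279) and -0.24 in Per3 5/5 mice, which did not pass (adjusted p 0.0664). The other Glul probe (A_52_P143866) was lower in all 3 genotypes, by -0.24, -0.52 and -0.45 in Per3 5/5, Per3 4/4 and WT mice (adjusted p 0.0422, 9.41e-05 and 0.000509). Without WT replicate 3 the Per3 5/5 value at the brightest probe lay just under the threshold. Aldh1l1, a folate enzyme used as a marker of all astrocytes, differed by -0.26 in Per3 4/4 and -0.28 in WT mice (SE 0.08, adjusted p 0.00730 and 0.00383) and by 0.01 in Per3 5/5 mice (adjusted p 0.933). In 19 of 24 mice it was lower in hypothalamus.

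The remaining genes were Fabp7, Aqp4 and S100b, and of these Fabp7 alone passed in every genotype. Fabp7, the brain fatty acid binding protein, was higher in hypothalamus in 21 of 24 mice, with log2 levels of 1.32, 2.27 and 3.0 in cortex and 2.22, 2.61 and 3.88 in hypothalamus. The difference was 0.50, 0.30 and 0.39 (SE 0.12, adjusted p 0.00106, 0.0390 and 0.00817). Aqp4, the water channel of astrocyte endfeet, differed by 0.37 in Per3 5/5 (SE 0.13, adjusted p 0.0193), 0.22 in Per3 4/4 (adjusted p 0.161) and 0.03 in WT mice (adjusted p 0.857) at its brightest probe (A_51_P419319). The WT value rested on WT replicate 3 and was 0.17 without it (adjusted p 0.213). S100b, a calcium-binding protein, differed by 0.26, 0.08 and 0.14 (SE 0.10, adjusted p 0.0312, 0.486 and 0.222), and the Per3 5/5 call was lost without the 2 arrays high in pituitary genes (0.25, adjusted p 0.0616). Past the threshold in 1 genotype, these 2 genes were not shown to differ between genotypes in their tissue difference, as the test of that difference shows.

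**Figure D2:**
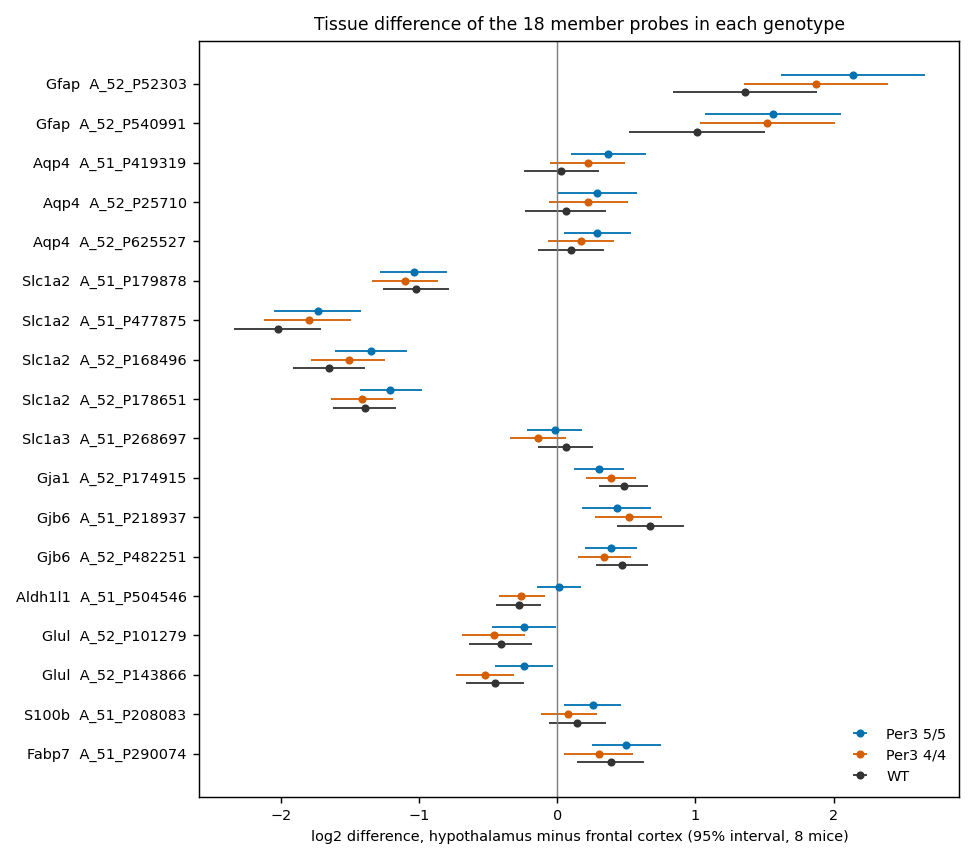
Log2 difference, hypothalamus minus frontal cortex, of each of the 18 probes in Per3 5/5, Per3 4/4 and WT mice, with 95% intervals from the fit within mice (8 mice per genotype). Both Gfap probes lie right of 0 and all 4 Slc1a2 probes left of it in the 3 genotypes, and the intervals of the genotypes overlap at every probe.

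Whether the tissue difference itself depended on genotype was tested by the interaction. No probe of the 10 genes passed in any of the 3 contrasts (0 of 54 tests, limma). An unadjusted p under 0.05 was seen for 1, 2 and 0 probes in Per3 5/5 against Per3 4/4, Per3 5/5 against WT and Per3 4/4 against WT. Among all probes 0%, 0.00961% and 0.0032% passed in the same order. The lowest unadjusted p was that of Aldh1l1 for Per3 5/5 against WT, where the tissue differences differed by 0.29 (unadjusted p 0.0168). Gfap differed by 0.78 between the same genotypes (unadjusted p 0.0393, adjusted p 0.791). Leaving out WT replicate 3 or the 2 arrays high in pituitary genes also gave 0 calls.

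Genes of other cell types differed between the tissues as well, and their part in the tissue differences of the astrocyte genes was not tested. Of 13 oligodendrocyte genes, 13, 13 and 11 were higher in hypothalamus in Per3 5/5, Per3 4/4 and WT mice, and their summed log2 level rose from a range of 6.33 to 7.73 in cortex to 7.66 to 8.52 in hypothalamus. All 8 ependymal genes were higher there in each genotype (median log2 difference 3.13, 3.53 and 3.85), with summed levels of 1.05 to 2.14 in cortex and 4.01 to 5.26 in hypothalamus. Of 12 microglial genes, 12, 11 and 9 were lower, with summed levels of 4.03 to 5.76 in cortex and 3.60 to 5.26 in hypothalamus. Of 12 pan-neuronal genes, 3, 3 and 2 were higher and 5, 7 and 6 lower (66.7%, 83.3% and 66.7% called). Among all probes 58.6%, 59.0% and 59.5% differed between the tissues, which applies to each of these lists.

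Other astrocyte genes split in both directions too. Of 57 further genes of this kind, 32 were higher and 9 lower in hypothalamus in Per3 5/5 mice, 26 and 12 in Per3 4/4 mice and 25 and 11 in WT mice. The shares called were 71.9%, 66.7% and 63.2%, not far from the 58.6%, 59.0% and 59.5% of all probes. Agt, which encodes angiotensinogen, was higher by 6.01, 6.03 and 5.97 on the log2 scale (SE 0.15), and the hyaluronan-binding Itih3 by 3.83, 3.76 and 3.78 (SE 0.09). Dio2, the enzyme that activates thyroid hormone, differed by -3.74, -3.84 and -3.44, and the BMP antagonist Chrdl1 by -3.42, -3.61 and -3.33 (adjusted p of at most 1.82e-15). Each of these 4 differences was larger in size than that of any of the 10 genes. Of 14 genes of glutamate and glutamine handling, the neuronal glutamate transporter Slc1a6 was higher in hypothalamus by 1.44, 1.30 and 1.64.

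Between the 2 knock-ins no probe of the 10 genes differed. Per3 5/5 and Per3 4/4 gave 0 calls of 18 in cortex and 0 in hypothalamus (limma), where 2 and 0 of them had an unadjusted p under 0.05. Among all probes 0% passed in either tissue. The 2 probes were in cortex: Aqp4 A_52_P25710 with a log2 difference of -0.33 (95% interval -0.64 to -0.02) and Glul A_52_P143866 with -0.35 (-0.63 to -0.07). The intervals differed in width. In hypothalamus, with narrower intervals than these 2 probes, Slc1a3 differed by 0.11 (-0.09 to 0.32) and Aldh1l1 by 0.13 (-0.03 to 0.29). Both intervals still hold 0.27, the difference called for Aldh1l1 between Per3 4/4 and WT in hypothalamus. Gfap left the most room, with -0.49 in cortex (-1.01 to 0.04), since its levels in Per3 5/5 mice lay between 0.25 and 1.74 and those in Per3 4/4 mice between 0.48 and 2.14.

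In cortex, 4 of the 18 probes, from 3 genes, were up-regulated in Per3 4/4 compared with WT mice. This share was close to the 22.5% of all probes that passed. None of the 4 was the brightest probe of its gene, so by that probe 0 of 10 genes passed (6 of the 18 probes had an unadjusted p under 0.05). Glul A_52_P143866 had lowest, median and highest log2 levels of 1.74, 2.01 and 2.31 in Per3 4/4, 1.08, 1.86 and 2.24 in Per3 5/5 and 1.20, 1.33 and 1.61 in WT mice. Every Per3 4/4 mouse lay above every WT mouse, and Per3 5/5 mice spread over both. The difference between Per3 4/4 and WT was 0.67 (SE 0.14, adjusted p 0.00264), or 1.59-fold. At the brightest Glul probe it was 0.03 (adjusted p 0.870).

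The same held for Aqp4. At A_52_P25710 the levels were 0.17, 0.61 and 1.02 in Per3 4/4 and -0.26, 0.06 and 0.35 in WT mice, and 7 of 8 Per3 4/4 mice lay above all WT mice. The difference was 0.59 (SE 0.15, adjusted p 0.00855), or 1.5-fold. A_52_P625527 gave 0.47 (SE 0.13, adjusted p 0.0135), while the brightest Aqp4 probe gave 0.18 (adjusted p 0.346). Slc1a2 A_52_P178651 lay between 1.71 and 2.58 in Per3 4/4 and between 1.51 and 2.05 in WT mice, with a difference of 0.32 (SE 0.11, adjusted p 0.0418), against -0.23 (adjusted p 0.281) at the brightest Slc1a2 probe.

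These 4 calls were kept with scan day as a block, where 7.72% of all probes passed: 0.54 for Glul (adjusted p 0.0204), 0.55 and 0.47 for Aqp4 (adjusted p 0.0435 and 0.0455) and 0.41 for Slc1a2 (adjusted p 0.0437). On the arrays of scan day 2 alone, with 3 Per3 4/4 and 5 WT mice, the differences were 0.63, 0.67, 0.52 and 0.38, and 0 passed (adjusted p 0.0615 at the lowest, 3 probes at an unadjusted p under 0.05). Per3 5/5 compared with WT gave 0 calls in cortex, where 12.4% of all probes passed, and 0 with the block, where 0.986% did (3 probes at an unadjusted p under 0.05 in each). The nearest to the threshold was Slc1a2 A_52_P178651 with 0.31 (adjusted p 0.0635).

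**Figure D3:**
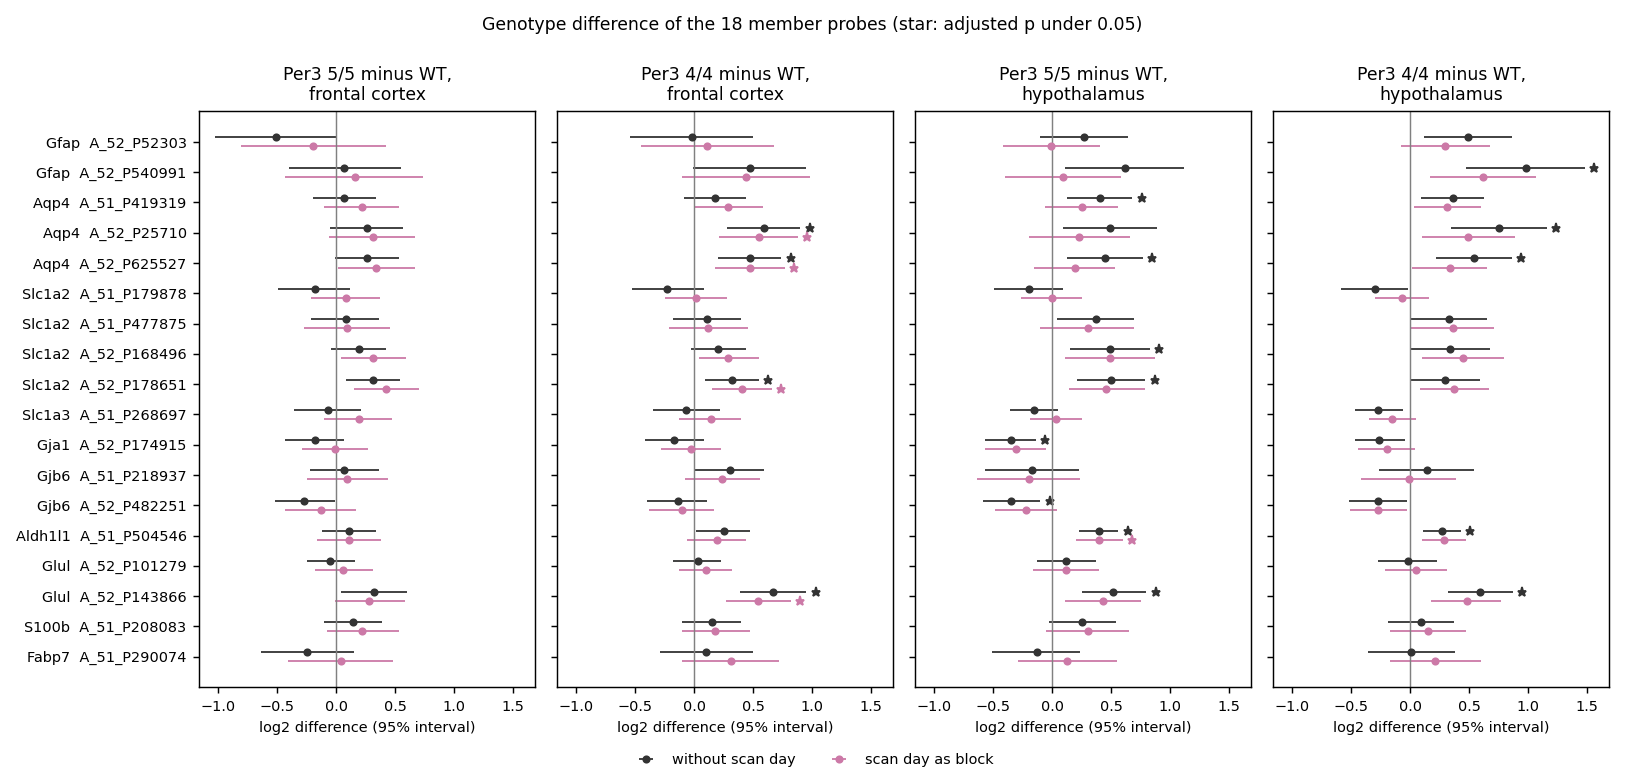
Log2 difference of the 18 probes between each knock-in and WT in each tissue with 95% intervals, without scan day (black) and with scan day as a block (pink); stars mark an adjusted p under 0.05. With the block 4 probes are marked for Per3 4/4 in cortex and 1 (Aldh1l1) for Per3 5/5 in hypothalamus.

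In hypothalamus, 8 probes differed between Per3 5/5 and WT, where 18.8% of all probes passed, 6 up-regulated and 2 down-regulated. By the brightest probe, Aldh1l1 and Aqp4 were higher and Gja1 and Gjb6 lower. Aldh1l1 had levels of 2.97, 3.0 and 3.28 in Per3 5/5, 2.84, 2.93 and 3.12 in Per3 4/4 and 2.45, 2.69 and 2.98 in WT mice. Of 8 Per3 5/5 mice, 6 lay above all WT mice. The difference was 0.40 (SE 0.08, adjusted p 0.00290), or 1.32-fold, and it stayed at 0.40 when scan day was a block (adjusted p 0.0384) and was then the 1 probe of the 8 to pass, where 2.1% of all probes did. On scan day 3 alone it was 0.46, and 0 of 18 probes passed (5 at an unadjusted p under 0.05).

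Aqp4 A_51_P419319 was at 2.25, 2.42 and 2.61 in Per3 5/5 and 1.17, 2.10 and 2.46 in WT mice, a difference of 0.41 (SE 0.13, adjusted p 0.0342). It became 0.25 with the block (adjusted p 0.331), 0.28 without WT replicate 3 (still called) and 0.37 without the 2 arrays high in pituitary genes (adjusted p 0.0808). Gja1 was at 0.32, 0.53 and 0.91 in Per3 5/5 and 0.55, 0.88 and 1.31 in WT mice, overlapping over much of the range. The difference was -0.35 (SE 0.10, adjusted p 0.0214), and -0.31 with the block (adjusted p 0.15). Gjb6 A_52_P482251 lay between 3.40 and 4.28 in Per3 5/5 and between 3.98 and 4.55 in WT mice, a difference of -0.35 (SE 0.12, adjusted p 0.0427), and -0.22 with the block (adjusted p 0.312). It was -0.31 without WT replicate 3 (adjusted p 0.0795). The 4 other probes were Glul A_52_P143866 (0.52), Aqp4 A_52_P625527 (0.45) and Slc1a2 A_52_P168496 and A_52_P178651 (0.49 and 0.50). Without WT replicate 3, 5 probes passed, and without the 2 arrays high in pituitary genes 3 passed (Aldh1l1, Glul A_52_P143866 and Gja1).

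For Per3 4/4 compared with WT in hypothalamus, 5 probes of 4 genes were up-regulated, where 15.1% of all probes passed. Gfap A_52_P540991 was at -2.30, -1.21 and -0.66 in Per3 4/4, -2.35, -1.71 and -0.84 in Per3 5/5 and -3.07, -2.12 and -1.94 in WT mice. Of 8 Per3 4/4 mice, 7 lay above all WT mice, and the difference was 0.98 (SE 0.25, adjusted p 0.0153), or 1.97-fold. The brightest Gfap probe gave 0.49 (SE 0.18, adjusted p 0.0632). Aqp4 A_52_P25710 and A_52_P625527 were higher by 0.75 and 0.54 (adjusted p 0.0171 and 0.0253), Glul A_52_P143866 by 0.59 (adjusted p 0.0102) and Aldh1l1 by 0.27 (adjusted p 0.0282). Once scan day was a block, 0 of 18 passed (0.745% of all probes, lowest adjusted p 0.0921, 9 probes at an unadjusted p under 0.05), and the Gfap difference was 0.62. Without WT replicate 3 the same 5 passed. Without the 2 arrays high in pituitary genes Aldh1l1 was at 0.24 (adjusted p 0.0523), and Slc1a3 became a call of lower level at -0.32 (adjusted p 0.0335), against -0.27 with them (adjusted p 0.0707).

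A pattern over probes ran through all 4 comparisons with WT, which share their WT arrays within a tissue. In each of them, the brightest probe had the lowest log2 difference in 5 of 5 genes with several probes. For Glul in cortex the values were 0.03 and 0.67 in Per3 4/4 mice, and for Slc1a2 they ran from -0.23 to 0.32. The array 75th percentile also moved with genotype (above), and its part in these differences was not tested. Across all probes of the same signal decile as the members, the median log2 difference in the comparisons with WT lay between -0.04 and 0.10.

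Oligodendrocyte genes moved with the hypothalamus comparisons. Of 13, 6 (46.2%) were higher in Per3 5/5 (median difference 0.35) and 9 (69.2%) in Per3 4/4 (0.45) than in WT mice. Among all probes 18.8% and 15.1% passed. With scan day as a block 0 and 2 of the 13 passed, against 2.1% and 0.745% of all probes. Their summed log2 level in hypothalamus was 7.95 to 8.28 (Per3 5/5), 8.06 to 8.52 (Per3 4/4) and 7.66 to 8.22 (WT). Ependymal genes were lower in Per3 5/5, with 5 of 8 (62.5%) passing (summed level 4.01 to 5.18 against 4.47 to 5.22 in WT). So were 3 of 12 microglial genes, a share (25.0%) not far from the 18.8% of all probes. Once scan day was blocked, 1 ependymal and 0 microglial genes passed. In cortex 1 of 13 oligodendrocyte genes (7.69%) and 0 of 6 ependymal genes passed in Per3 4/4 mice, below the 22.5% of all probes. The part of these cell types in the differences of the astrocyte genes was not tested.

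The 57 further astrocyte genes were mostly higher where they differed from WT. In Per3 4/4 mice 15 were higher in cortex, and 12 higher and 1 lower in hypothalamus. In Per3 5/5 mice 4 were higher in cortex and 17 in hypothalamus. As shares called these were 26.3% and 22.8% in Per3 4/4 and 7.02% and 29.8% in Per3 5/5 mice, against 22.5%, 15.1%, 12.4% and 18.8% of all probes, so both cortex shares were near or below that of all probes. With scan day as a block the numbers were 6, 1, 0 and 3, or 10.5%, 1.75%, 0% and 5.26%, against 7.72%, 0.745%, 0.986% and 2.1%. In Per3 5/5 cortex the NMDA receptor subunit gene Grin2c differed by 0.42 (SE 0.13, adjusted p 0.0327) and Aldoc, an aldolase of glycolysis, by 0.28 (SE 0.09, adjusted p 0.0448). In Per3 5/5 hypothalamus the metallothionein gene Mt3 differed by 0.73 (SE 0.22, adjusted p 0.0259). With the block these became 0.42, 0.36 and 0.41, and none passed (adjusted p 0.129, 0.0712 and 0.352).

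Lists of astrocyte function gave calls in both directions. Among all probes 22.5% and 15.1% passed in Per3 4/4 cortex and hypothalamus, and 12.4% and 18.8% in those of Per3 5/5 mice. Of 14 genes of glutamate and glutamine handling, 2 in cortex and 2 in hypothalamus were higher in Per3 4/4, and 1 and 3 in Per3 5/5 than in WT mice. As shares these were 14.3%, 14.3%, 7.14% and 21.4%, near or below those of all probes. The glutamine exporter Slc38a3 differed by 0.34 and 0.43 in Per3 4/4 and by 0.40 in Per3 5/5 hypothalamus, and none of the 14 passed with the block. Of 18 genes of glycogen and lactate, 3 were higher and 2 lower in Per3 4/4 cortex, 3 and 3 in Per3 4/4 hypothalamus, 0 and 2 in Per3 5/5 cortex and 1 and 4 in Per3 5/5 hypothalamus. In the same order 27.8%, 33.3%, 11.1% and 27.8% of the list were called. The hexokinase Hk2 was lower in hypothalamus, by -0.65 in Per3 4/4 and -0.56 in Per3 5/5 mice (adjusted p 0.0192 and 0.0269), and did not pass with the block. The lactate transporter Slc16a1 was lower in Per3 4/4 cortex (-0.33) and passed with the block (-0.31, adjusted p 0.0401). The glycogen phosphorylase Pygm was higher in hypothalamus by 0.58 in Per3 4/4 and 0.59 in Per3 5/5 mice (SE 0.10), and it passed with the block at 0.55 and 0.52 (adjusted p 0.0343 and 0.0399). Of 25 genes linked to reactive astrocytes that were tested in hypothalamus, 7 (28.0%) were lower in Per3 5/5 mice, among them Emp1 (-0.72), Cd109 (-0.71), Srgn (-0.63) and S100a10 (-0.57). Srgn is also a gene of blood and microglial cells. The summed log2 level of this list was lowest on Per3 5/5 replicates 6, 7 and 8 (4.24, 4.12 and 4.48), all of scan day 3, against 4.73 to 4.97 on the other Per3 5/5 arrays and 4.78 to 5.29 in WT mice. The same 3 arrays had the lowest summed ependymal level of all Per3 5/5 and WT mice (4.45, 4.01 and 4.39), and the part of these arrays in the 7 calls was not tested. With the block Cd109 alone passed (-0.78, adjusted p 0.0469). In Per3 4/4 hypothalamus 1 passed (S100a10, -0.43), and in cortex 1 in Per3 5/5 mice (S1pr3, 0.31) and 0 in Per3 4/4 mice. These shares (4.0%, 4.17% and 0%) lay below those of all probes.

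The 10 genes were then compared across mice, with the mean of each genotype removed, by the brightest probe (45 pairs per tissue, 24 mice, 100000 permutations of mice within genotype, two-sided). In cortex the genes varied together. The median Pearson r was 0.54, 42 of 45 pairs were positive, and 25 passed after adjustment over the 45 pairs (24 by Spearman's rho), all positive. Of all pairs of 15269 named genes 7.11% had an r over 0.5, and 53.3% of the 45 pairs did. Among the 1526 genes of highest signal the share was 11.7%.

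The highest r in cortex joined Aqp4 and Fabp7 (r 0.85, permutation p 1e-05, the smallest these permutations give, adjusted p 0.000300, rho 0.86, rho permutation p 1e-05). Without the 2 mice farthest from the Aqp4 median it was 0.81, and within scan days 1, 2 and 3 it was 0.85, 0.77 and 0.87. Slc1a3 and Gja1 had an r of 0.81 (permutation p 2e-05, adjusted p 0.000300, rho 0.74, rho permutation p 0.00019), 0.65 without the farthest mice, and 0.88, 0.79 and 0.13 by scan day. The 2 glutamate transporter genes had an r of 0.79 (permutation p 3e-05, adjusted p 0.000337, rho 0.69, rho permutation p 0.00043), 0.70 without the farthest mice, and 0.72, 0.67 and 0.52 by scan day. Slc1a3 and Glul had an r of 0.77 (permutation p 2e-05, adjusted p 0.000300, rho 0.75, rho permutation p 3e-05), 0.64 without the farthest mice, and 0.90, 0.78 and 0.16 by scan day. Glul took part in 8 of the 25 pairs, and Slc1a3 and Gja1 in 7 each.

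Gfap stood outside this group, with 1 of its 9 pairs passing (Aqp4, r 0.51, permutation p 0.0141, adjusted p 0.0265, rho 0.52, rho permutation p 0.0125, 0.48 without the farthest mice, and 0.16, 0.49 and 0.59 by scan day). The cortex pattern was not the same on every scan day. The median r of the 45 pairs was 0.64 on day 1, 0.65 on day 2 and 0.10 on day 3, and 16 of the 25 pairs had the same sign on all 3 days. With scan-day means removed 21 pairs passed, 19 of them shared with the 25. Without the 2 farthest mice, 18 of the 25 kept an unadjusted p under 0.05.

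**Figure D4:**
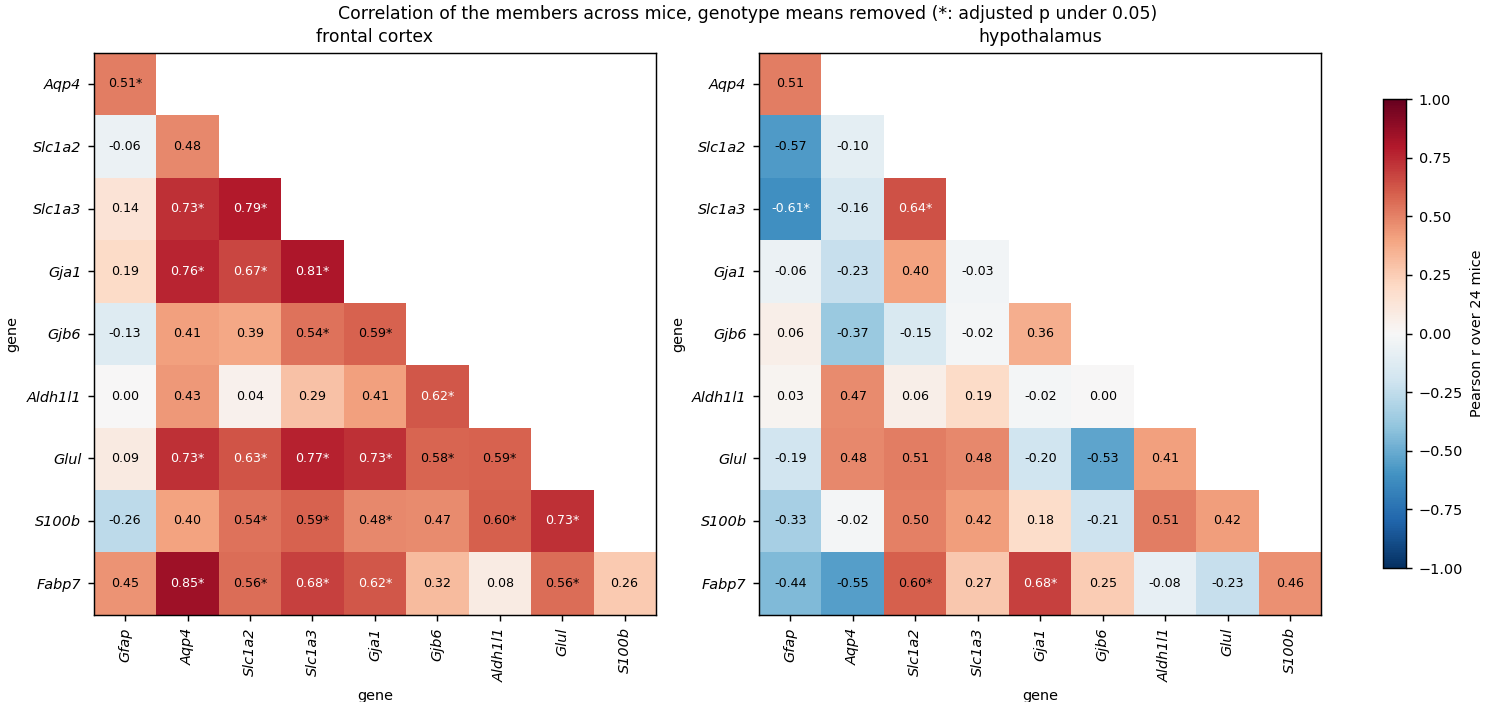
Pearson r over 24 mice between the 10 genes in frontal cortex (left) and hypothalamus (right), with genotype means removed and stars for an adjusted permutation p under 0.05. In cortex the block from Aqp4 to Fabp7 is positive throughout (Gfap aside), and in hypothalamus r runs from -0.61 to 0.68 with 4 stars.

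In hypothalamus the median r was 0.03, and 4 pairs passed. Gja1 and Fabp7 had an r of 0.68 (permutation p 0.00110, adjusted p 0.0165, rho 0.58, rho permutation p 0.00797), 0.55 without the farthest mice, and 0.20, 0.81 and 0.63 by scan day. The transporter genes Slc1a2 and Slc1a3 had an r of 0.64 (permutation p 0.00078, adjusted p 0.0165, rho 0.65, rho permutation p 0.00143), 0.64 without the farthest mice, and 0.92, 0.64 and 0.41 by scan day. Of the 4 pairs, the 3 positive ones, this pair among them, passed in cortex too. Slc1a2 and Fabp7 had an r of 0.60 (permutation p 0.00013, adjusted p 0.00585, rho 0.71, rho permutation p 0.00023), 0.52 without the farthest mice, and -0.27, 0.48 and 0.81 by scan day. Gfap and Slc1a3 were opposed (r -0.61, permutation p 0.00234, adjusted p 0.0263, rho -0.62, rho permutation p 0.00268, -0.60 without the farthest mice, and -0.81, -0.39 and -0.32 by scan day).

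With scan-day means removed 0 of the 45 hypothalamus pairs passed (7 at an unadjusted permutation p under 0.05). Without WT replicate 3, 9 passed, the 4 included, and without the 2 arrays high in pituitary genes 3 of the 4 did. Of all gene pairs 8.98% had an r over 0.5 in hypothalamus, and 13.3% of the 45 did. WT replicate 3 decided the value for Aqp4 and Fabp7, which was -0.55 with it and 0.01 without it. The difference between the tissues in these correlations was not tested.

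**Figure D5:**
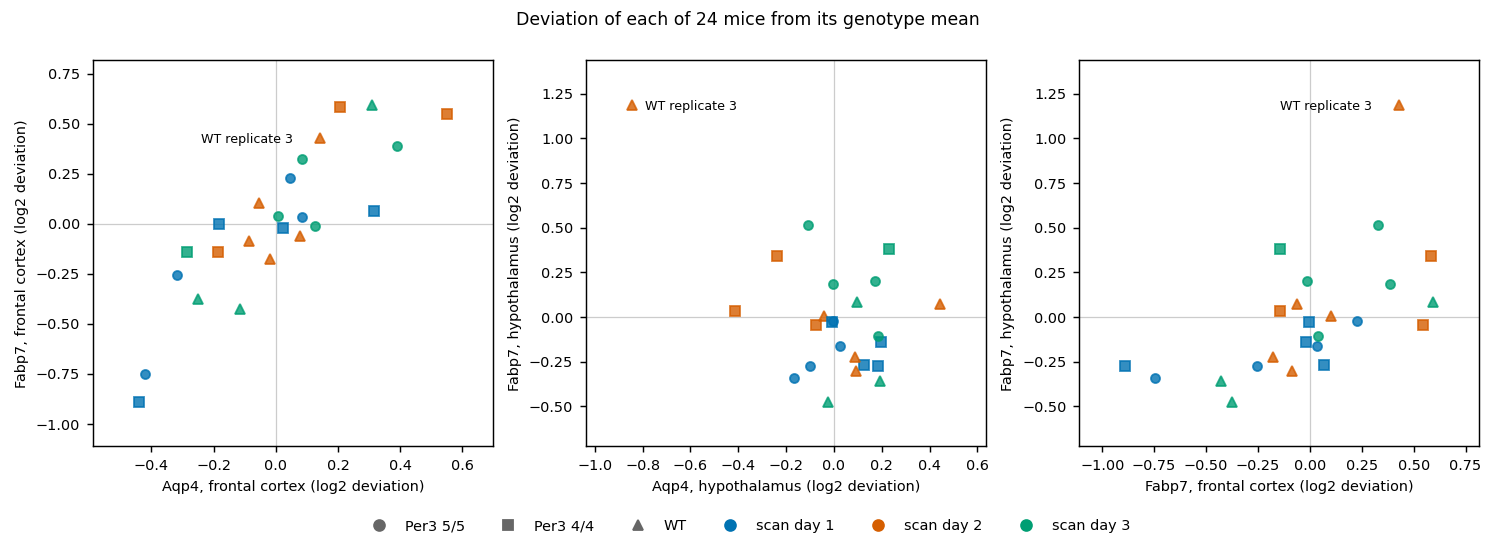
Deviation of each of the 24 mice from its genotype mean (log2), for Fabp7 against Aqp4 in frontal cortex (left) and hypothalamus (middle), and for Fabp7 in hypothalamus against Fabp7 in cortex (right); shapes are genotypes and colours scan days. The mice lie along a rising line in cortex (r 0.85), WT replicate 3 sits alone at the upper left in hypothalamus, and Fabp7 rises between the tissues (r 0.59).

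For 1 gene the level in cortex went with that in hypothalamus of the same mouse. Fabp7 had an r of 0.59 (24 mice, permutation p 0.00097, adjusted p 0.00970 over the 10 genes, rho 0.66, rho permutation p 0.00099). It was 0.58 without the 2 farthest mice, 0.72, 0.65 and 0.77 on scan days 1, 2 and 3, and 0.63 without WT replicate 3. The tissues of each mouse lay on 1 slide, and the part of the shared slide in this value was not tested. The other 9 genes did not pass, with r between -0.37 (Gfap) and 0.45 (Gjb6). Array brightness was also set against the brightest probe of each gene, with genotype means removed. No relation passed (Aqp4 in hypothalamus was nearest, r 0.41, permutation p 0.0347, adjusted p 0.347). This does not cover brightness differences between genotypes or the other probes.

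The genes most like the 10 across mice were found by the median of their r with the 10 genes, as a description. In cortex these included Mlc1 (0.73), a membrane protein of astrocyte endfeet, Afap1l2 (0.72), Acadl (0.72), an enzyme of fatty acid oxidation, and Mllt6 (0.72). In hypothalamus no gene came near these values, and the highest were Dnal1 (0.48), Metrn (0.47), Kcnb2 (0.47), Ankrd12 (0.46) and Lrrc8b (0.46). Without WT replicate 3 the first was Mapk4 (0.53), followed by Sfxn5 (0.52).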

How the data were processed

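RNA of frontal cortex and hypothalamus of 24 mice was hybridised by the authors to 1-colour Agilent arrays, 4 to a slide, and read with Feature Extraction 10.7.1.1 (protocol GE1_107_Sep09, array annotation mm9). The deposited scanner files give the processed intensity of each spot, and a deposited table gives log2 values that the authors shifted to the 75th percentile of each array in GeneSpring 12. In that table each probe is also centred, by tissue, on its median. Of its values 99.97% lay within 0.05 of the log2 levels computed here after the same centring, and 29.07% of the cortex values were blank.

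From the processed intensity, the log2 level was log2 signal minus the log2 75th percentile of the 43379 non-control spots of the array. Outlier spots (48 to 172 per array) were set to missing, no spot was saturated, and the spots of a probe were averaged. A probe was tested where 6 or more of the 8 arrays of some group had it well above background: 29715 in cortex, 30735 in hypothalamus and 31228 in both. Names came from the RefSeq gene table and covered 67.2% of probes. The number of arrays, not a read depth, limits the precision.

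Genotypes were compared within a tissue (24 arrays, 3 group means) and tissues within mice (48 arrays, mouse as a block) with limma 3.58.1 in R 4.3.3, two-sided, with Benjamini-Hochberg adjustment over all probes tested and a threshold of 0.05. Nothing in the labels says that replicates of a genotype were housed or prepared apart. Without a block, p values of genotype comparisons measure the spread between these mice together with that between slides and scan days. Per3 5/5 and WT mice never shared a slide. With slide as a random block the consensus correlation was 0.262 in cortex and 0.225 in hypothalamus. Correlations used 100000 permutations of mice within genotype (Python 3.11.15, NumPy 2.4.6, pandas 2.3.3, SciPy 1.17.1). A gene was counted by its brightest tested probe. All 10 genes are named with all their probes, and from each further list at most the 4 called genes with the largest difference per comparison, or fewer. The genes and lists were chosen with earlier results of these data known. The lists held further and reactive astrocyte genes, glutamate and glycogen handling, junction and endfoot genes, and markers of other cell types. Of the lists not described in the report, 9 tanycyte genes gave 5, 5 and 4 higher and 3 lower each in hypothalamus, 19 junction and endfoot genes 10, 10 and 11 higher and 2 lower each, 6 oligodendrocyte precursor genes 5 higher each and 10 endothelial genes 4, 5 and 5 lower, in Per3 5/5, Per3 4/4 and WT mice. Among all probes 58.6%, 59.0% and 59.5% differed between the tissues in the same order. Motif positions were counted from the first transcribed base as annotated. The fits were tested on simulated data. Alternatives were another background correction, other scalings and filters, the authors' table, scan day, slide, replicate number and mouse as blocks, 1 scan day alone and the methods' t-test. Leaving out WT replicate 3, and leaving out 2 arrays high in pituitary genes, were chosen after seeing the data. Probe sequences, and a promoter of Aqp4, were not used here. Some genes that the naming rule selects are not reported here.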

Additional observations from a re-analysis of the deposited data

Results flagged for a closer look

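In 108 sets of 8 mice (18 probes, 3 genotypes, 2 tissues), 6 had 1 mouse whose gap to the nearest of the others was large for the range of its group, above Dixon's 95% critical value for 8 samples. Chance marks about 1 in 20 such sets. Of the 6, 3 were WT replicate 3 in hypothalamus. There the water channel gene Aqp4 (A_51_P419319) was lowest at a log2 level of 1.17, with the next mouse at 1.97 (gap over range 0.623). Gjb6 A_51_P218937 was highest at 3.15 with the next at 2.25 (0.711), and Fabp7 was highest at 3.88 with the next at 2.78 (0.663). On the other arrays, Aqp4 A_52_P625527 was lowest in cortex of WT replicate 8 at -0.39, next to -0.04 (0.549). Gja1, a connexin gene, was highest in hypothalamus of Per3 4/4 replicate 8 at 0.95, next to 0.64 (0.708). Gjb6 A_52_P482251 was lowest in hypothalamus of Per3 4/4 replicate 1 at 3.48, next to 3.92 (0.630). None of the 54 tests of a difference between genotypes in the tissue difference passed.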

How the results depend on the processing

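No call on a single probe changed direction under any alternative. Of 400 values of the 40 called tissue differences 383 stayed past the threshold, and of 243 values of the 17 called genotype differences 160 did. Between the knock-ins (0 probes in either tissue) the methods' t-test also gave 0 after Benjamini-Hochberg adjustment. The methods also called probes by a rank product analysis, which was not run here, so this is not a repeat of the authors' calls. For Per3 5/5 against WT in cortex (0 probes), normexp background correction gave 2, median scaling 1 and the methods' t-test 1. For Per3 4/4 against WT in cortex (4), 1 scan day alone gave 0. For Per3 5/5 against WT in hypothalamus (8), normexp gave 3, no filter 4, scan day as a block 1, slide as a random block 2 (consensus correlation 0.225), no WT replicate 3 gave 5 and that with the scan day block 1, no arrays high in pituitary genes 3, 1 scan day alone 0 and the methods' t-test 3. For Per3 4/4 against WT in hypothalamus (5), normexp gave 3, scan day as a block 0, the same without WT replicate 3 0, and 1 scan day alone 0. Without WT replicate 3, with and without the scan day block, these counts ran from 1 to 5 and from 0 to 5, and stayed at 0 between the knock-ins. Without that mouse the tissue calls were 16, 13 and 13. Normexp moved the median of all probes by 0.21 and 0.14 for Per3 4/4 minus WT in cortex and hypothalamus, by -0.11 for Per3 5/5 minus Per3 4/4 in cortex and by -0.15 for the tissue difference in Per3 4/4 mice, and median scaling moved it by -0.11 for Per3 5/5 minus WT in cortex. For covariation, median scaling gave 16 cortex pairs (25 without it) and 8 hypothalamus pairs (4), scan-day means removed gave 0 hypothalamus pairs, no WT replicate 3 gave 9, and quantile normalization gave 3 genes correlated between tissues (1). The cause of these changes was not tested, save that 1 scan day alone holds fewer mice.

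Replicate numbers were not taken as pairs. Of 8 same-numbered pairs of mice, 1 to 6 exceeded a correlation of 0.1. Correlations of mice with different numbers are not given here, so these counts cannot decide whether the numbers pair mice. Per3 5/5 and Per3 4/4 replicates 1 to 4 did share slides by number, with correlations of -0.002 to 0.27 in cortex and -0.003 to 0.517 in hypothalamus. With the replicate block the counts were 0 and 0 between the knock-ins, 0 and 8 for Per3 5/5 and 4 and 5 for Per3 4/4 against WT in cortex and hypothalamus. Tissue fits without the mouse block (no replicate block) gave 11, 12 and 12 probes for Per3 5/5, Per3 4/4 and WT.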
